A study of Mus musculus with 45 samples.

Results

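Haemoglobin and red cell transcripts were followed through the cortex, hippocampus and retina of mice that had received tamoxifen or its vehicle. The set holds Hba-a1, Hba-a2, Beta-s and Alas2, taken as the rows whose gene symbol equals 1 of these names, which makes 4 of the 36172 genes in each deposited table. RNA was sequenced from tissue of male and female mice aged 3 months, given either tamoxifen, an oestrogen receptor modulator used to switch on inducible Cre recombinase, or sunflower oil as the vehicle. The strain, the genotype, the dose and the interval between treatment and collection are not given in the labels used here. Among females, every tissue had 4 libraries from tamoxifen animals and 3 from vehicle animals. Among males, the cortex had 3 from tamoxifen animals and 4 from vehicle animals, the hippocampus 4 and 3, and the retina 4 and 4. Libraries of a tissue carry different animal numbers, and the same numbers recur across tissues with the same sex and treatment. A shared number is taken here as the same animal, which the labels do not state.

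Haemoglobin carries oxygen in red blood cells and is built from α and β globin chains, each holding a haem group. Adult mice make the α chains from the neighbouring genes Hba-a1 and Hba-a2. Beta-s is a β globin gene of the haplotype carried by C57BL/6 mice, whose current symbol in RefSeq is Hbb-bs. Alas2 encodes the red cell form of 5-aminolevulinate synthase, the first enzyme of haem synthesis. These transcripts persist in reticulocytes, the youngest red cells in the circulation, and in brain or retina they are mostly read as a trace of blood left in the tissue, although neurons and glia have been described to express globin at low levels.

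Hba-a1 (gene ID 15122) lies on chr11:32283672-32284486 and Hba-a2 (gene ID 110257) on chr11:32296492-32297310, both on the plus strand of GRCm38, with their starts 12820 bases apart. Beta-s (gene ID 100503605) lies on chr7:103826523-103827928 on the minus strand, and Alas2 (gene ID 11656) on chrX:150547417-150570622 on the plus strand. The stretch just before the transcription start is shown for 3 members as a description of sequence. Any part of this sequence in the variation shared across libraries was not tested. The windows are 250 bases long, from RefSeq (GRCm38.p6), on the coding strand. Capitals mark GATAA, the core bound by GATA factors, CACCC, the core bound by KLF factors, the CCAAT box and the TATAA box, searched on both strands.
Hba-a1 (chr11:32283422-32283671, plus strand): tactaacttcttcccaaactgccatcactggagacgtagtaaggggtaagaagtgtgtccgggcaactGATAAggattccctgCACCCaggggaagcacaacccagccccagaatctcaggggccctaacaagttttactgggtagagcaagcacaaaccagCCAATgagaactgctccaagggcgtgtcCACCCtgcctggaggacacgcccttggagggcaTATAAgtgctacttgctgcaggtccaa
Beta-s (chr7:103827929-103828178, minus strand): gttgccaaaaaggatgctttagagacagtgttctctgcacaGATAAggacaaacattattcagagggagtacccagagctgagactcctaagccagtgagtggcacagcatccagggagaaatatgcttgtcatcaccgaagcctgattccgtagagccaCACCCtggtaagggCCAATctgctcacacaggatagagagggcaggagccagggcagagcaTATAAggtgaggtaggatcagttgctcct
Alas2 (chrX:150547167-150547416, plus strand): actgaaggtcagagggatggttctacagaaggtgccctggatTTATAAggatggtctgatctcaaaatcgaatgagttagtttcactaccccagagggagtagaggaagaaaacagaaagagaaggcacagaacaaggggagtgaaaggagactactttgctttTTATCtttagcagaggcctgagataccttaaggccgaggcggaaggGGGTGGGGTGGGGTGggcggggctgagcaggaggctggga

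The window of Hba-a2 (chr11:32296242-32296491) shares a run of 247 bases with that of Hba-a1 and is not repeated. GATAA occurred 1 time in each of the 4 windows. CACCC occurred 2 times in both α globin windows, 1 time in Beta-s and 3 times in Alas2, where its reverse complement is repeated in tandem. CCAAT occurred 1 time in each globin window and 0 times in Alas2. TATAA occurred 1 time in each globin window, at positions -30 to -27 from the start. Its 2 matches in Alas2, at -207 and -208, overlap as the same stretch read on both strands. Of 32851 RefSeq promoter windows of this length, 22.58% held GATAA, 52.01% CACCC, 33.85% CCAAT and 22.78% TATAA. All 4 motifs stood together in 0.968% of them, as they did in the 3 globin windows. These matches describe the letters only.

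Near-identical copies limit how the reads of single globin genes can be assigned. Of the 50-base windows of the Hba-a1 transcript, 67.5% also occur in Hba-a2, and 86.9% of those of Hba-a2 occur in Hba-a1. Beta-s shares 65.8% of its windows with a further β globin row, Hbb-b1, which is not a member. That row has the coordinates at which RefSeq places Hbb-bt, the other β globin gene of the same haplotype. The split between Hba-a1 and Hba-a2, and between Beta-s and Hbb-b1, is therefore uncertain, while no such window is shared between an α row, a β row and Alas2.

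Total counts ran from 10259768 to 22375163 in the cortex, from 31154309 to 44153244 in the hippocampus and from 9143811 to 18253874 in the retina. A cortex library of 4567 counts, from male tamoxifen animal 962, was left out. The labels of retina and cortex were checked against marker lists: the summed level of 10 rod photoreceptor genes was at least 47833 CPM in every retina group and at most 85.1 CPM in the cortex, and 10 neuronal genes summed to at least 5189 CPM in every library. These lists cannot tell cortex from hippocampus, so that distinction was not checked. CPM is a gene's count over the library's total scaled by TMM within its tissue, times 1000000. Some libraries held RNA of neighbouring structures. Ttr, the main transcript of choroid plexus, exceeded 10 times the tissue median in 2 cortex libraries (animals 958 and 960) and in 3 hippocampus libraries (951, 958 and 962), and Cryaa, a lens crystallin, did so in 3 retina libraries (951, 959 and 962). The retina median of Cryaa was only 0.49 CPM, so the limit there was low.

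All 4 members were detected in every library and passed the filter on low counts in all 3 tissues. In the cortex, Hba-a1 had a median of 70.5 CPM over 14 libraries, with a range of 35.8 to 101.5 CPM. Beta-s had a median of 66.1 CPM (37.5 to 98.2), Hba-a2 12.4 CPM (5.99 to 22.5) and Alas2 3.31 CPM (1.83 to 6.04). Per kilobase of exon, Hba-a1 and Beta-s stood at 86.8 and 86.1 CPM per kb, Hba-a2 at 18.6 and Alas2 at 1.38. The ranges of Hba-a1 and Beta-s per kilobase overlapped almost whole (44.1 to 125 against 48.8 to 127.9), so the order of these genes is not set apart by their spread. Hba-a2 (8.98 to 33.7) lay under both in every library of the cortex, and Alas2 (0.762 to 2.51) lay under Hba-a2.

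In the hippocampus the medians were 37.4 CPM for Hba-a1 (8.17 to 59.3), 31.2 for Beta-s (6.73 to 54.9), 8.92 for Hba-a2 (2.21 to 14.7) and 1.81 for Alas2 (0.717 to 3.41). In the retina they were 18.3 CPM for Hba-a1 (9.14 to 57.8), 21.0 for Beta-s (9.06 to 53.8), 3.23 for Hba-a2 (1.07 to 9.43) and 1.05 for Alas2 (0.228 to 2.56). Depth behind these values differed. In the cortex the counts per library ran from 430 to 2087 for Hba-a1, whereas Alas2 in the retina rested on 3 to 34 counts.

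**Figure D1:**
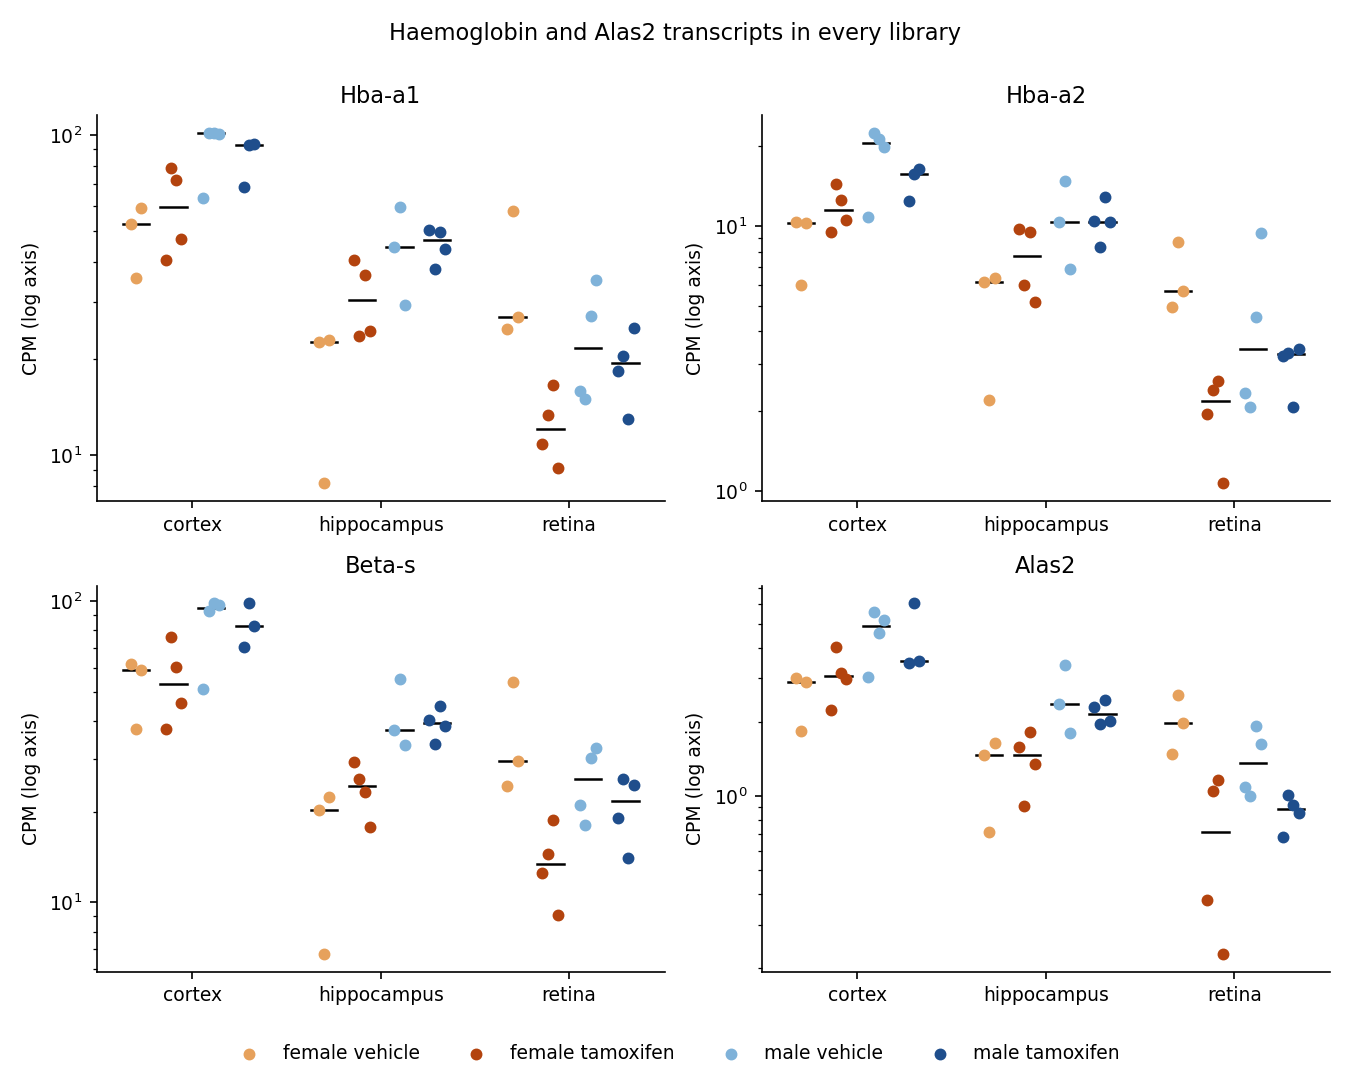
Level of each member in every library, in CPM on a log axis, by tissue and by sex and treatment group; each point is 1 animal and each bar the group median. By the median over all libraries the cortex is highest and the retina lowest for all 4 members, the 4 female tamoxifen retinas lie under the 3 female vehicle retinas, and 1 female vehicle animal is lowest for Hba-a1 in the hippocampus at 8.17 CPM and highest in the retina at 57.8 CPM.

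Averaged over the 4 groups, levels fell from cortex to hippocampus to retina for every member. Hba-a1 was lower in the hippocampus than in the cortex by a log2 fold change of -1.04 ± 0.15 (SE), Beta-s by -1.20 ± 0.14, Alas2 by -0.96 ± 0.16 and Hba-a2 by -0.65 ± 0.17. All 4 members were called lower there by edgeR's quasi-likelihood test at a Benjamini-Hochberg adjusted p below 0.05, the largest adjusted p being 0.000693 for Hba-a2. That comparison called 34.8% of all 15900 genes lower and 69.7% in either direction, so the calls alone say little about the members. Against the cortex, the retina was lower by -1.79 ± 0.16 for Hba-a1, -1.66 ± 0.15 for Beta-s, -1.92 ± 0.18 for Hba-a2 and -1.72 ± 0.18 for Alas2, where 43.9% of genes were called lower and 88.2% in either direction. Against the hippocampus, the retina was lower by -1.27 ± 0.18 for Hba-a2, -0.76 ± 0.17 for Alas2, -0.75 ± 0.16 for Hba-a1 and -0.46 ± 0.15 for Beta-s, where 43.4% of genes were called lower and 89.4% in either direction. Tissue cannot be told apart from the table and depth it came with, and in bulk tissue fewer red cells and less RNA per red cell cannot be told apart.

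The order of cortex over the other tissues held in nearly every animal. That of hippocampus over retina did not hold for Hba-a1, Beta-s and Alas2 in the female vehicle group. Hba-a1, Beta-s and Alas2 were lower in the hippocampus than in the cortex in 13 of 13 animals with both tissues, and Hba-a2 in 12 of 13. All 4 members were lower in the retina than in the cortex in 13 of 14 animals, and the exception was animal 957 for each of them. The retina lay below the hippocampus in 12 of 14 animals for Hba-a2, 11 for Beta-s, 10 for Hba-a1 and 10 for Alas2. All 3 female vehicle animals (955, 957 and 958) were among the exceptions for Hba-a1, Beta-s and Alas2. In that group the median of Hba-a1 was 27.0 CPM in the retina and 22.5 CPM in the hippocampus, that of Beta-s 29.5 against 20.2 CPM, and that of Alas2 1.98 against 1.47 CPM. Hba-a2 had 5.68 CPM in the retina and 6.16 CPM in the hippocampus there. These CPM were scaled within each tissue, unlike the fold changes between tissues, which were scaled over all libraries, so near ties could turn. Alas2 of animal 955 was such a tie, at 1.4756 CPM in the retina (15 counts) and 1.4705 CPM in the hippocampus (48 counts).

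Animal 957, a female given vehicle, stood at or next to the bottom of all libraries for the members in both brain regions and at or next to the top in the retina. Its Hba-a1 level was 35.8 CPM in the cortex, the lowest of 14, and 8.17 CPM in the hippocampus, again the lowest of 14. Its retina had 57.8 CPM, the highest of 15. Beta-s in this animal was 37.7 CPM in the cortex (second lowest), 6.73 CPM in the hippocampus (lowest) and 53.8 CPM in the retina (highest). Alas2, at 1.83, 0.717 and 2.56 CPM, was lowest, lowest and highest. Hba-a2 was lowest in both brain regions, at 5.99 and 2.21 CPM, and the second highest of 15 in the retina, at 8.70 CPM. This animal is 1 of only 3 female vehicle animals, so the female treatment effects are also given without it.

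**Figure D2:**
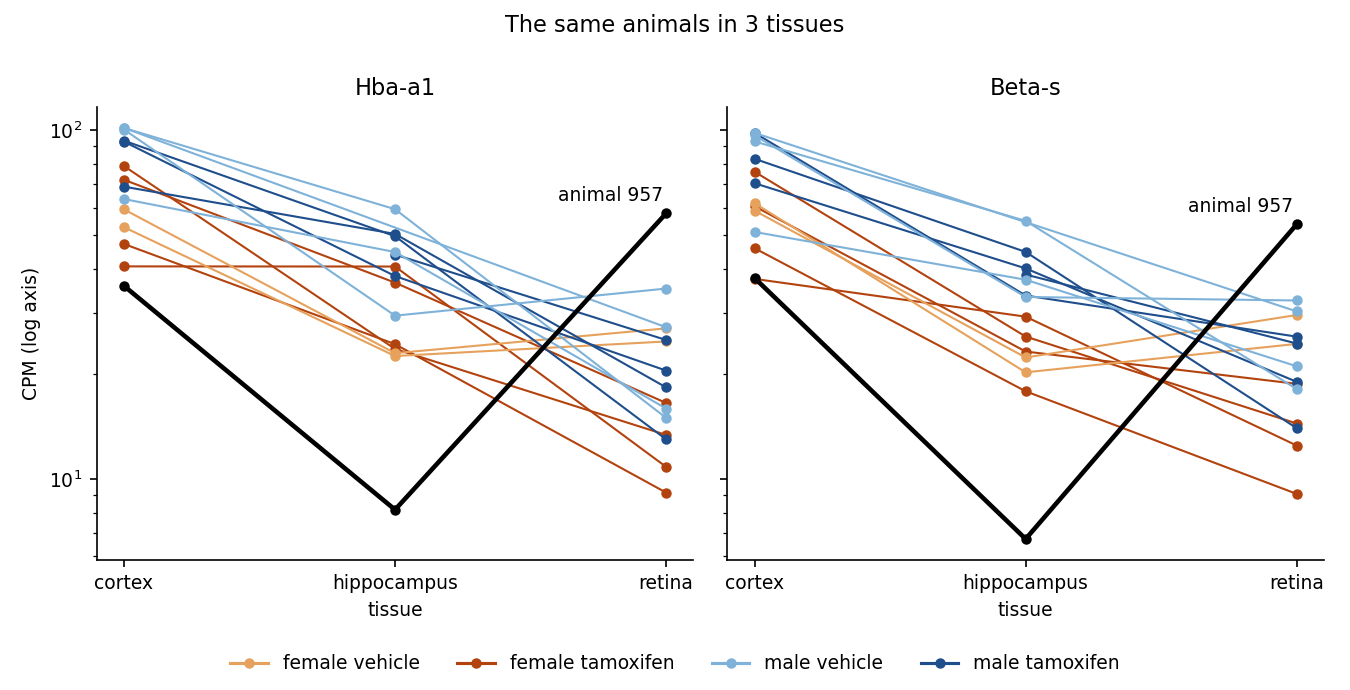
Hba-a1 (left) and Beta-s (right) in CPM on a log axis, with 1 line per animal joining its tissues and colours for sex and treatment; animal 965 has no hippocampus value and animal 962 no cortex value. Most lines go down from cortex to retina, and animal 957, in black, goes down to 8.17 CPM for Hba-a1 in the hippocampus and up to 57.8 CPM in the retina.

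In the retina of females, all 4 members were lower in every tamoxifen library than in every vehicle library. Hba-a1 stood at 10.8, 13.4, 16.5 and 9.14 CPM in the tamoxifen animals 951, 952, 953 and 954 and at 24.8, 57.8 and 27.0 CPM in the vehicle animals 955, 957 and 958. Beta-s stood at 12.5, 14.4, 18.7 and 9.06 CPM with tamoxifen and at 24.4, 53.8 and 29.5 CPM with vehicle. The 2 groups did not overlap for either gene, and the vehicle group was the more spread.

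Hba-a2 stood at 1.95, 2.40, 2.61 and 1.07 CPM with tamoxifen and at 4.92, 8.70 and 5.68 CPM with vehicle. Alas2 stood at 0.378, 1.05, 1.16 and 0.228 CPM with tamoxifen and at 1.48, 2.56 and 1.98 CPM with vehicle, from 3 to 17 counts against 15 to 23. Neither gene overlapped between the groups. Such a full separation downwards occurred in 2.97% of the 14781 genes tested in the retina. The row Hbb-b1, which shares reads with Beta-s, separated in the same way.

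The log2 fold change in females was -1.55 ± 0.32 for Hba-a1, -1.39 ± 0.28 for Beta-s, -1.67 ± 0.43 for Hba-a2 and -1.52 ± 0.44 for Alas2, which is a level 2.93, 2.63, 3.19 and 2.87 times lower. Adjusted over all genes, none of the 4 members passed edgeR's quasi-likelihood test, in which 0.0406% of genes were called. The adjusted p was 0.111 for Beta-s, 0.113 for Hba-a1, 0.335 for Hba-a2 and 0.477 for Alas2, while all 4 unadjusted p-values lay below 0.05 and Beta-s ranked 12 of 14781 genes. DESeq2 called 3 of the 4 members, with adjusted p of 0.0249 for Beta-s, 0.0396 for Hba-a1 and 0.0428 for Hba-a2, and with no filter on low counts edgeR called Beta-s at 0.0449. Without animal 957 the fold change was -1.07 for Hba-a1, -0.99 for Beta-s, -1.40 for Hba-a2 and -1.32 for Alas2, with adjusted p between 0.511 and 0.702, and every tamoxifen library still lay below both vehicle libraries.

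Markers of other cell types were read in the same libraries. The summed level of 16 endothelial genes was 449 to 518 CPM in the female tamoxifen retinas and 457 to 497 CPM in the female vehicle ones. Cldn5, a tight junction gene of vessel walls, stood at 9.07 to 10.6 CPM against 10.4 to 13.8 CPM. It is 1 of these 16 genes and was picked out by itself. The sum and Cldn5 both overlapped between the groups. The 12 genes of pericytes and vascular smooth muscle summed to 924 to 965 CPM against 948 to 1112 CPM. The 10 lens genes summed to 1.29 to 127 CPM against 2.56 to 6.28 CPM, with the high value in animal 951. The 11 meningeal and fibroblast genes summed to 142 to 145 CPM against 152 to 251 CPM, so these groups did not overlap either. The part of these markers in the haemoglobin difference was not tested. Without the retinas rich in Cryaa, of which only that of animal 951 was female, the fold changes in females were -1.49 ± 0.36 for Hba-a1 and -1.36 ± 0.32 for Beta-s. With them they were -1.55 ± 0.32 and -1.39 ± 0.28.

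In the retina of males the groups overlapped for every member. Hba-a1 stood at 18.3, 20.5, 12.99 and 25.03 CPM with tamoxifen (animals 959 to 962) and at 15.9, 14.97, 27.2 and 35.2 CPM with vehicle (animals 963 to 966). Beta-s stood at 19.0, 25.6, 14.0 and 24.5 CPM against 21.0, 18.1, 30.2 and 32.5 CPM. The highest values of both genes were in vehicle libraries and the lowest in a tamoxifen library. The log2 fold change was -0.28 ± 0.29 for Hba-a1, -0.30 ± 0.25 for Beta-s, -0.59 ± 0.40 for Hba-a2 and -0.71 ± 0.41 for Alas2, and every 95% interval included 0. Without vehicle animal 966 the values were -0.025 for Hba-a1, -0.17 for Beta-s and 0.0011 for Hba-a2. Leaving out each library in turn, Hba-a1 ranged from -0.44 to -0.025 and Beta-s from -0.43 to -0.15. Hba-a2 ranged from -0.83 to 0.0011 and Alas2 from -0.84 to -0.51 in the same fits. None was called by edgeR at an unadjusted p below 0.05 or by DESeq2, and 0% of genes were called. The effect in males minus that in females was 1.27 ± 0.43 for Hba-a1, 1.09 ± 0.38 for Beta-s, 1.09 ± 0.59 for Hba-a2 and 0.81 ± 0.60 for Alas2, with adjusted p of 0.999 for each. The unadjusted p of this difference lay below 0.05 for Hba-a1 and Beta-s only, and 0% of genes were called by edgeR.

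With the sexes averaged, the members were lower in the tamoxifen retinas by -0.92 ± 0.22 for Hba-a1, -0.85 ± 0.19 for Beta-s, -1.13 ± 0.29 for Hba-a2 and -1.12 ± 0.30 for Alas2. The median of the 4 was -1.02 beside 0.00 for all genes. None passed edgeR's test, which called 0.0474% of genes, with adjusted p of 0.124 for Beta-s, 0.171 for Hba-a1, 0.238 for Hba-a2 and 0.267 for Alas2. All 4 unadjusted p-values lay below 0.05. DESeq2 called Hba-a2 (adjusted p 0.025) and gave no adjusted p for Alas2.

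In the hippocampus of females the 3 globin members lay on the other side, while Alas2 had like medians of 1.46 CPM with tamoxifen and 1.47 CPM with vehicle. Hba-a1 stood at 40.7, 23.6, 36.6 and 24.3 CPM in the tamoxifen animals 951, 952, 953 and 954 and at 22.5, 8.17 and 22.9 CPM in the vehicle animals 955, 957 and 958. Each tamoxifen library exceeded each vehicle library, by as little as 23.6 against 22.9 CPM, a separation found upwards in 2.59% of 15339 genes. The other members overlapped between the groups. The log2 fold change was 0.81 ± 0.30 for Hba-a1, 0.63 ± 0.33 for Hba-a2, 0.55 ± 0.29 for Beta-s and 0.16 ± 0.30 for Alas2. None passed edgeR's test (adjusted p 0.808 for Hba-a1), in which 0.013% of genes were called, and the unadjusted p lay below 0.05 for Hba-a1 only. DESeq2 called none of the 3 members for which it gave an adjusted p. Without animal 957 the values were 0.46, 0.28, 0.17 and -0.14, so Alas2 changed sign.

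In males the hippocampus showed values of -0.21 to 0.03 over the 4 members, with 0% of genes called, and in no member were the groups apart. With the sexes averaged the hippocampus gave 0.42 ± 0.21 for Hba-a1, 0.30 ± 0.23 for Hba-a2, 0.23 ± 0.20 for Beta-s and -0.03 ± 0.20 for Alas2. None was called by edgeR at an adjusted p or at an unadjusted p below 0.05, nor by DESeq2, while 0.0652% of genes were called by edgeR. Without animal 957 the averaged values were 0.25 for Hba-a1, 0.13 for Hba-a2 and 0.041 for Beta-s. The effect in males minus that in females ran from -0.78 ± 0.41 for Hba-a1 to -0.37 ± 0.41 for Alas2, with adjusted p of 0.9998 for each, and 0% of genes were called.

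In the cortex no difference with treatment was detected for any member. Hba-a1 stood at 40.7, 78.9, 72.1 and 47.2 CPM in the female tamoxifen animals and at 52.7, 35.8 and 59.3 CPM in the female vehicle ones. In males it stood at 68.9, 92.7 and 93.3 CPM with tamoxifen and at 63.5, 101.5, 101.5 and 100.4 CPM with vehicle, so the groups overlapped in both sexes. Averaged over the sexes, the log2 fold change was 0.08 ± 0.14 for Hba-a1, 0.04 ± 0.15 for Hba-a2, 0.02 ± 0.15 for Beta-s and 0.10 ± 0.19 for Alas2, where 0.606% of genes were called. The 95% intervals ran from -0.22 to 0.38 for Hba-a1 and from -0.30 to 0.35 for Beta-s. In females the values were 0.06 to 0.39 (0.375% of genes called), and without animal 957 they were 0.095 for Hba-a1, 0.19 for Hba-a2, -0.13 for Beta-s and 0.078 for Alas2, so Beta-s changed sign. In males they were -0.32 to -0.01 (0.0272% called). No member was called in any of these by edgeR, at an adjusted p or an unadjusted p below 0.05, or among the 2 to 4 members for which DESeq2 gave an adjusted p. The effect in males minus that in females was -0.72 ± 0.31 for Hba-a2, with an unadjusted p below 0.05 and an adjusted p of 0.859, and -0.38 to -0.07 for the others, with 0% of genes called by edgeR.

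A joint fit of the 3 tissues tested whether the treatment effect averaged over the sexes differed between them. The adjusted p was 0.243 for Hba-a1, 0.375 for Hba-a2, 0.411 for Beta-s and 0.487 for Alas2 by edgeR's quasi-likelihood test, so none passed, and 0.0126% of genes did. The unadjusted p lay below 0.05 for all 4. The positive values in the hippocampus and the negative ones in the retina of females share no libraries, but they come from the same 7 animal numbers.

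**Figure D3:**
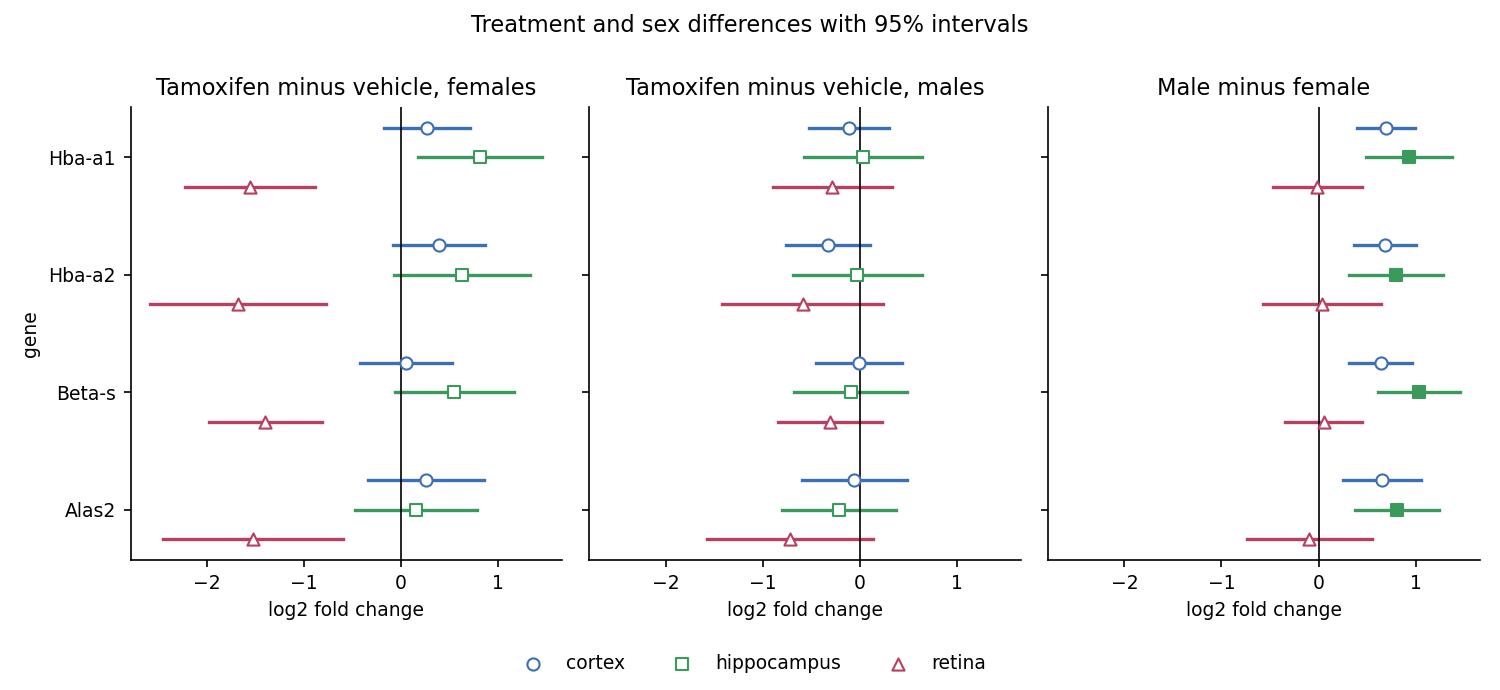
Log2 fold changes of the 4 members by tissue, for tamoxifen against vehicle in females (left) and in males (middle) and for males against females (right), with 95% intervals; filled symbols passed edgeR's test at an adjusted p below 0.05. In females the retina intervals lie wholly below 0, from -1.67 to -1.39 at their centres, and the hippocampus differences between the sexes, 0.80 to 1.03, are the filled ones.

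Males had more haemoglobin and Alas2 RNA than females in the hippocampus, and this was the one comparison outside tissue in which edgeR, with the filter on low counts and all libraries used, called members. Beta-s had a lowest, median and highest level of 33.2, 38.6 and 54.9 CPM in 7 males and of 6.73, 22.3 and 29.2 CPM in 7 females. Every male lay above every female, a separation upwards found in 2.12% of the 15339 genes. Hba-a1 had 29.4, 44.7 and 59.3 CPM in males and 8.17, 23.6 and 40.7 CPM in females, so its ranges overlapped, with 5 of 7 males above every female.

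Hba-a2 had 6.89, 10.4 and 14.7 CPM in males and 2.21, 6.16 and 9.69 CPM in females. Alas2 had 1.80, 2.30 and 3.41 CPM in males and 0.717, 1.47 and 1.82 CPM in females, with 6 of 7 males above every female. For all 4 members, 7 of 7 males exceeded the female median.

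The log2 fold change of males against females in the hippocampus was 1.03 ± 0.20 for Beta-s, 0.93 ± 0.21 for Hba-a1, 0.81 ± 0.20 for Alas2 and 0.80 ± 0.23 for Hba-a2. All 4 members were called higher by edgeR, with adjusted p of 0.00545, 0.0101, 0.0167 and 0.0269 in that order, and all 4 by DESeq2. The same test called 17.7% of all genes in either direction and 10.6% of all genes higher in males, so a call is common there. The median over the members was 0.87 beside -0.01 for all genes. Without animal 957 the values were 0.84 for Beta-s, 0.76 for Hba-a1, 0.66 for Alas2 and 0.62 for Hba-a2, and Hba-a2 no longer passed (adjusted p 0.0539). Hba-a2 also did not pass without animals 952, 954, 961, 963 or 964 in turn, with adjusted p between 0.0502 and 0.07.

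Other cell markers were read in the same hippocampus libraries. The share of all genes called higher in males was 10.6%, and 17.7% were called in either direction. Of 16 endothelial genes 3 were called higher in males, namely Cldn5 (0.48 ± 0.09), Esam (0.36 ± 0.08) and Egfl7 (0.25 ± 0.07), named here after their values were seen. The endothelial sum was 395 to 527 CPM in the female tamoxifen and 445 to 489 CPM in the female vehicle group, and 434 to 531 and 402 to 478 CPM in the male ones. Of 10 microglial genes 3 were higher, of 10 oligodendrocyte genes 3, and of 10 neuronal genes 4 were higher and 1 lower. The part of these in the haemoglobin difference was not tested. Females carried the lower animal numbers (951 to 958) and males the higher ones (959 to 966), so handling by number cannot be told apart from sex.

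In the cortex the difference between the sexes had a like size, but edgeR did not call it. Hba-a1 had a lowest, median and highest level of 63.5, 93.3 and 101.5 CPM in 7 males and of 35.8, 52.7 and 78.9 CPM in 7 females, and 5 of 7 males lay above every female. The log2 fold change was 0.70 ± 0.14 for Hba-a1, 0.69 ± 0.15 for Hba-a2, 0.64 ± 0.15 for Beta-s and 0.65 ± 0.19 for Alas2. The adjusted p was 0.082, 0.14, 0.249 and 0.387, all 4 unadjusted p-values lay below 0.05, and 0.0817% of genes were called. DESeq2 called Hba-a2 (adjusted p 0.00577) of 3 members with an adjusted p, and edgeR with no filter on low counts called Hba-a1 (0.00534), Hba-a2 (0.0302) and Beta-s (0.0326). Single libraries also decided the call: without male vehicle animal 963 edgeR called Hba-a1 (adjusted p 0.0175), Hba-a2 (0.00517) and Beta-s (0.0219), and without female tamoxifen animal 952 Hba-a1 (0.0322). Without animal 957 the values were 0.61 for Hba-a1, 0.58 for Hba-a2, 0.55 for Beta-s and 0.56 for Alas2. Meningeal and fibroblast markers lay on the same side. All 11 had a positive log2 fold change of males against females, with a median of 0.36, and Fmod was called (0.51 ± 0.08). Their sum was 335 to 487 CPM in male tamoxifen and 268 to 387 CPM in male vehicle cortices, against 245 to 288 and 240 to 321 CPM in the female ones. Their part in the haemoglobin difference was not tested.

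In the retina the ranges of the sexes overlapped. Hba-a1 had a median of 19.4 CPM in 8 males and 16.5 CPM in 7 females, with the female range of 9.14 to 57.8 CPM enclosing the male range of 12.99 to 35.2 CPM. The log2 fold change was -0.01 ± 0.22 for Hba-a1, 0.04 ± 0.29 for Hba-a2, 0.06 ± 0.19 for Beta-s and -0.10 ± 0.31 for Alas2. None was called by edgeR, at an adjusted p or an unadjusted p below 0.05, or among the 3 members with an adjusted p in DESeq2, and 0.149% of genes were called by edgeR. The 95% interval for Hba-a1 ran from -0.47 to 0.45. Whether the difference between the sexes itself differed between tissues was not tested.

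The members varied far more between animals of a group than a typical gene. The SD of log2 CPM within groups was 0.37 for Hba-a1 and Hba-a2, 0.40 for Beta-s and 0.38 for Alas2 in the cortex, beside a median of 0.14 over all genes. In the hippocampus it was 0.42 to 0.54 beside 0.14, and in the retina 0.45 to 0.63 beside 0.15. Between 86.4% of genes (Hba-a1, cortex) and 95% of genes (Hba-a2, retina) had a smaller SD.

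This variation was shared. After the mean of each sex and treatment group had been subtracted from log2 CPM, Hba-a1 and Beta-s correlated at Pearson r = 0.96 over 14 cortex libraries, 0.90 over 14 hippocampus libraries and 0.95 over 15 retina libraries. Hba-a1 and Hba-a2, which share reads, correlated at 0.91, 0.98 and 0.90. Hba-a1 and Alas2, which share no 50-base window and lie on different chromosomes, correlated at 0.82, 0.93 and 0.67.

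Over all 6 pairs r ran from 0.82 to 0.96 among cortex libraries, 0.76 to 0.98 among hippocampus libraries and 0.66 to 0.95 among retina libraries, and Spearman's rho from 0.69 to 0.83, 0.72 to 0.96 and 0.69 to 0.96. All 18 relations passed a two-sided permutation test of 100000 resamples adjusted over 66 relations, with a largest adjusted p of 0.0269 for r and 0.0309 for rho. The values were permuted over all libraries and not within groups. This does not allow for the group means already subtracted, so these p-values tend to be too small, and the weakest relations may not pass a stricter test. Without the 2 libraries farthest from the median, the lowest r was 0.71 in cortex, 0.55 in hippocampus and 0.68 in retina. The members of a pair share the library and its scaling.

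**Figure D4:**
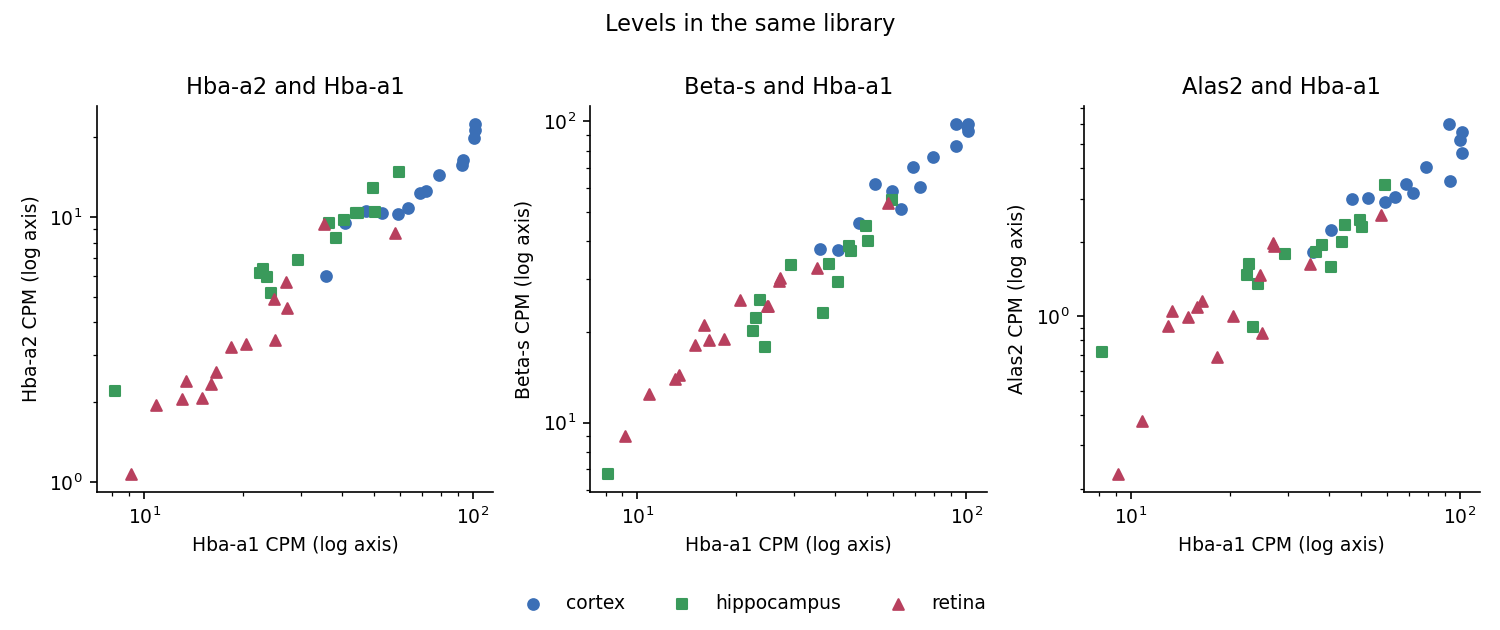
Levels of Hba-a2, Beta-s and Alas2 against Hba-a1 in the same library, in CPM on log axes and without subtraction of group means; each point is 1 library and symbols mark the tissue. The points rise together in each panel, with the cortex at the upper end (Hba-a1 35.8 to 101.5 CPM) and the widest scatter for Alas2 in the retina, which rests on 3 to 34 counts. The tissues are offset for Hba-a2, the median ratio of Hba-a1 to Hba-a2 being 4.11 in the hippocampus and 6.15 in the retina.

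Within a tissue, the proportions among the globin rows were steadier than their sum. The summed CPM of Hba-a1, Hba-a2, Beta-s and Hbb-b1 varied 2.76-fold over cortex libraries, 7.29-fold over hippocampus libraries and 5.77-fold over retina libraries. The ratio of α to β CPM varied 1.42-fold in cortex (0.597 to 0.849), 1.53-fold in hippocampus (0.661 to 1.01) and 1.41-fold in retina (0.566 to 0.80). These ratios are of CPM and not per length, so only their variation is compared. The ratio of Hba-a1 to Hba-a2 varied 1.39-fold, 1.34-fold and 2.3-fold in the same order. Its median differed between tissues, at 5.53 in cortex, 4.11 in hippocampus and 6.15 in retina. The ratio of the globin sum to Alas2 varied 1.55-fold in cortex, 2.61-fold in hippocampus and 3.12-fold in retina.

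With group means subtracted, no member showed a positive relation between tissues of the same animal that passed the test. Hba-a1 in cortex and hippocampus correlated at r = 0.18 over 13 animals and in cortex and retina at 0.09 over 14 animals, neither passing the permutation test (adjusted p 0.735 and 0.846). Without subtraction of group means, cortex and hippocampus correlated at 0.69 for Hba-a2 and 0.66 for Beta-s, which passed (adjusted p 0.0334 and 0.0307), against 0.38 and 0.39 with it. Hba-a1 in hippocampus and retina correlated at r = -0.68 over 14 animals (adjusted permutation p 0.0272), with rho = -0.58 (adjusted p 0.102). Here too the permutation does not allow for the group means subtracted, so the p-value tends to be too small. Without the 2 animals farthest from the median r was -0.35, so this relation rests on those animals, animal 957 being the extreme in both tissues. For Beta-s, Hba-a2 and Alas2 the same correlation was -0.59, -0.46 and -0.35, and none passed.

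Hba-a1 was also set against the mean of 12 cell type lists in each tissue, which gave 36 relations. None passed the permutation test. The highest r was 0.59 with meninges and fibroblasts in the hippocampus (adjusted p 0.0772), and the lowest was -0.58 with neutrophils in the cortex (adjusted p 0.0954). With neutrophils r was -0.05 in hippocampus and -0.06 in retina. With platelets it was -0.51 in cortex, -0.08 in hippocampus and 0.24 in retina. With endothelium r was 0.17 in cortex, 0.40 in hippocampus and 0.55 in retina (adjusted p 0.735, 0.294 and 0.0954).

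The genes most like the members, by the lowest of the 3 within-tissue r with their mean over 13790 genes tested in all tissues, began with the β globin row Hbb-b1 (lowest r 0.89). It was followed at a distance by Capg, an actin-capping protein (0.60), Serpinh1, a collagen chaperone (0.60), and H2-Aa, an MHC class II chain (0.56). Gsta4, Fbln1, Bgn, Hspb1, Ticam1 and Cox6b2 completed the 10, at 0.52 to 0.55. They are given as a description over 43 libraries, with no test.

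Other red cell genes were compared by fixed lists. Of 13 names of globins 10 matched rows outside the members, 1 was Beta-s itself and 2 were not matched. Of the 10, 4 passed the filter in the cortex and hippocampus and 3 in the retina. The embryonic globins Hba-x and Hbb-bh1 had 0 counts in every library. None of the tested ones was called for tamoxifen in any tissue by edgeR. Hbb-b1 followed the members, with 0.09 ± 0.15 in cortex, 0.30 ± 0.21 in hippocampus and -0.89 ± 0.18 in retina (adjusted p 0.0842), and in retinas of females -1.49 ± 0.27 (adjusted p 0.0669). Cygb, the cytoglobin of fibroblasts and other cells, gave 0.10 ± 0.05 in the retina, and Ngb, the neuronal globin, -0.11 ± 0.24.

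Of 30 genes of the red cell membrane and cytosol 29 were in the tables, and 16, 17 and 15 passed the filter in cortex, hippocampus and retina. None was called for tamoxifen, with list medians of 0.04, 0.03 and 0.04. Slc4a1, the anion exchanger of the red cell membrane, had at most 12 counts in any library. Most genes of this list that passed are expressed by other cells too. Of the erythroid transcription factors and receptor, 4, 4 and 3 of 8 passed the filter and none was called for tamoxifen. Zfpm1, a partner of GATA factors, gave -0.18 ± 0.07, 0.19 ± 0.08 and 0.32 ± 0.13.

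The 12 tested genes of haem synthesis and iron import, a list not confined to red cells, also had 0 calls for tamoxifen, with medians of 0.01, 0.02 and -0.02. Alas1, the form of the enzyme outside red cells, gave 0.05 ± 0.05 in the cortex and -0.07 ± 0.05 in the retina. Of 11 genes of haem and haemoglobin clearance, 9, 10 and 10 were tested and none was called. Cd163, the scavenger receptor for haemoglobin on macrophages, gave -0.31 ± 0.18, -0.61 ± 0.23 and -0.70 ± 0.29.

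Between the sexes in the hippocampus, where 17.7% of all genes were called and 10.6% higher in males, the lists held few calls and are read as no more than that background. Among 4 other globins Hbb-b1 (0.74 ± 0.20) and Cygb (0.28 ± 0.05) were higher in males. Tmcc2 (0.16 ± 0.05) and Isg20 (0.92 ± 0.31) were the 2 of 17 red cell membrane and cytosol genes called, Slc25a38, the mitochondrial glycine carrier of haem synthesis (0.27 ± 0.07), was the only one of 12 in its list, and Ftl1, the ferritin light chain (0.41 ± 0.07), the only one of 10 clearance genes. None of these lists had a call between the sexes in the cortex or retina by edgeR.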

How the data were processed

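The authors deposited 1 table of RNA-seq estimated counts per gene for each tissue: per the file headers the columns used are raw, and only 17.7% to 23.4% of their values are whole (within 0.001). RNA was extracted with a combined DNA and RNA column kit and made into libraries with a TruSeq RNA kit, per the labels' protocols. Gene models were from RefSeq, per the file headers. GRCm38, mm10 and DESeq are named per the submitters' processing notes, without their role, and the aligner, counter and strand setting were not stated in the sources read. How reads of near-identical genes were counted can shift levels between those genes.

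Counts were rounded to whole numbers. Of 45 samples, 43 libraries were used: a library under 1000000 counts was left out, and 1 hippocampus library is not analysed here. Depth ran from 9143811 to 44153244 counts, so the lowest member, Alas2, is the least precise. In each tissue edgeR 4.0.16 (R 4.3.3) filtered low counts (minimum count 10, minimum total 15), scaled by TMM and fitted 4 group means by the quasi-likelihood method; a joint fit of 12 means gave tissue comparisons and a test, on 2 degrees of freedom, of the treatment effect between tissues. Adjusted p-values are Benjamini-Hochberg over all genes tested, and 0.05 was the threshold. Each standard error was the fold change over the root of F. The fit was tested on simulated data. Libraries of a group carry different animal numbers, and p-values measure the spread between these samples. Libraries with the same number in different tissues were taken as the same animal, from the number alone.

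Correlations used log2 CPM (prior count 2) less group means, with 100000 permutations (scipy 1.17.1) over all libraries or animals and not within groups. Members are named in every tissue, list genes as up to 4 per list with the smallest p for tamoxifen, and similar genes as the top 10. List genes called between the sexes, Cldn5, Alas1, Slc4a1, Hba-x and Hbb-bh1 were named by other criteria, some after their values were seen. The members and lists were chosen with earlier results of these data known. Of the list genes 207 matched by symbol, 5 by gene ID, 1 was a member and 3 were not matched. Alternatives were DESeq2 1.42.0, other scalings, no filter, libraries left out and an animal block.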

Additional observations from a re-analysis of the deposited data

Results flagged for a closer look

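In 28 tests, each of 1 member in a group of 4 libraries, for a library far from the other 3, there were 3 values that stood apart. Chance meets such a test in about 1 in 20 cases. The same groups were tested for each member and the members vary together, so these tests are not independent. In the cortex, male vehicle animal 963 had 63.5 CPM of Hba-a1 where the other 3 had 100.4 to 101.5 CPM. The same library had 51.1 CPM of Beta-s where the other 3 had 92.8 to 98.2 CPM. In the retina, male tamoxifen animal 961 had 2.06 CPM of Hba-a2 where the other 3 had 3.23 to 3.43 CPM.

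The difference of Hba-a1 between tamoxifen and vehicle females had opposite directions in hippocampus and retina. Every tamoxifen library lay above every vehicle library in the first, by as little as 23.6 against 22.9 CPM, and below in the second. Taken alone, such a separation was found upwards in 2.59% of genes in the hippocampus and downwards in 2.97% in the retina. The share of genes with both was not counted. The retina effect minus the hippocampus effect was -2.37 on the log2 scale. Without animal 957, the extreme library in both tissues, it was -1.53. This difference was not tested within females; averaged over the sexes, the test across the 3 tissues by edgeR gave an adjusted p of 0.243.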

How the results depend on the processing

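Of 433 member values under other settings 417 kept their direction and side of the threshold. These do not include the fits without 1 library. In those, 1031 member values kept both, 59 turned sign, 6 no longer passed the threshold and 4 newly passed it. The counts of genes called were, with no low count filter, 11 (cortex males), 6 (cortex difference between the sexes in effect), 27 (cortex sex), 15 (retina, sexes averaged), 2 (retina males) and 47 (retina sex). DESeq2 called 175, 101, 25, 7 and 36 genes in the cortex (average, females, males, difference, sex), 60, 20 and 14 in the hippocampus (average, females, males) and 64, 31, 6 and 121 in the retina (average, females, males, sex). Without Ttr- or Cryaa-rich libraries the counts were 35 and 13 in the cortex (average, females), 0 and 0 in the hippocampus (average, females) and 2, 8 and 63 in the retina (females, males, sex). With the near-empty library the cortex difference count was 1, and with library totals only the retina female count was 3. The corresponding counts by edgeR as reported were 89, 55, 4, 0 and 12 in the cortex, 10, 2 and 0 in the hippocampus, and 7, 6, 0 and 22 in the retina.

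Member values that crossed the threshold under settings that keep all libraries were the cortex sex differences of Hba-a1 (0.70), Hba-a2 (0.69) and Beta-s (0.64) with no filter, Hba-a2 (0.69) by DESeq2 and Hba-a1 (0.69) with the near-empty library, the averaged retina effect on Hba-a2 by DESeq2 (-1.14), and the female retina effects on Hba-a1 (-1.56), Hba-a2 (-1.69) and Beta-s (-1.40) by DESeq2 and on Beta-s (-1.39) with no filter. Signs turned without rich libraries for averaged treatment effects on Beta-s (-0.0032) and Alas2 (-0.018) in the cortex and Alas2 (0.071) in the hippocampus, and for retina sex differences of Hba-a2 (-0.057) and Beta-s (-0.0029); library totals turned that of Hba-a1 (0.0041). Without subtraction of group means r was -0.06 (Hba-a1) and -0.10 (Hba-a2) between cortex and retina, -0.59 (Hba-a1, hippocampus and retina), and 0.69 (Hba-a2) and 0.66 (Beta-s) between cortex and hippocampus. The cause was not tested. Same-numbered libraries share only a number: their deviations over all genes correlated at medians of 0.06 (cortex and hippocampus, over 0.1 in 4 of 13), 0.05 (cortex and retina, 2 of 14) and -0.03 (hippocampus and retina, 0 of 14). With the replicate block on that number, hippocampus against cortex was -1.02 for Hba-a1, 10891 genes were called there and 13984 in retina against cortex, the joint test of Hba-a1 had an adjusted p of 0.429, and no member call changed.

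Leaving out 1 library at a time, the counts were 31 to 97 (average), 11 to 61 (females), 0 to 5 (difference) and 10 to 21 (sex) in the cortex; 2 to 11 (average), 0 to 5 (females), 0 to 1 (males) and 1477 to 3808 (sex) in the hippocampus; 4 to 16 (average), 0 to 7 (females), 0 to 2 (males) and 11 to 110 (sex) in the retina; and 2 to 6 in the joint test. Alas2 ranged from -0.061 to 0.18 (cortex average), -0.39 to 0.094 (cortex males), -0.17 to 0.11 (hippocampus average), -0.14 to 0.37 (hippocampus females), -0.40 to 0.074 (hippocampus males) and -0.24 to 0.053 (retina sex). Beta-s ranged from -0.082 to 0.092 (cortex average), -0.15 to 0.20 (cortex females), -0.19 to 0.10 (cortex males), -0.25 to 0.13 (cortex difference), 0.55 to 0.74 (cortex sex), -0.23 to 0.16 (hippocampus males), 0.041 to 0.37 (hippocampus average) and -0.051 to 0.26 (retina sex). Hba-a1 ranged from -0.0086 to 0.16 (cortex average), -0.25 to 0.021 (cortex males), 0.61 to 0.78 (cortex sex), -0.19 to 0.30 (hippocampus males), 0.25 to 0.56 (hippocampus average), -0.44 to -0.025 (retina males) and -0.14 to 0.23 (retina sex). Hba-a2 ranged from -0.068 to 0.10 (cortex average), 0.58 to 0.78 (cortex sex), 0.62 to 0.91 (hippocampus sex), 0.13 to 0.46 (hippocampus average), -0.25 to 0.29 (hippocampus males), -0.83 to 0.0011 (retina males) and -0.26 to 0.17 (retina sex).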
